A study of Mus musculus with 21 samples.

Results

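The genes followed here encode the machinery that stores transmitter in synaptic vesicles and releases it: 42 genes were taken by symbol from a list that names them, and all 42 were found among the 64361 genes of the count table. They fall into 11 roles: vesicle-tethering synapsins (Syn1, Syn2, Syn3), vesicle membrane proteins (Syp, Synpr, Sypl, Sv2a, Sv2b, Sv2c), synaptotagmins and Doc2a, SNARE proteins (Snap25, Stx1a, Vamp1, Vamp2), complexins (Cplx1, Cplx2, Cplx3), SNARE disassembly (Nsf, Napb), the active zone (Unc13a, Rims1, Rims2, Rims3, Bsn, Pclo, Erc2), Rab3 proteins and their effector (Rab3a, Rab3b, Rph3a), vesicular glutamate transporters (Slc17a6, Slc17a7, Slc17a8), vesicle endocytosis (Dnm1, Amph, Synj1) and the synuclein Sncb. Of these, 39 had enough counts to be tested for the genotype effect in cortex and 40 in hippocampus. Doc2a and Slc17a8 were too low to be tested in any comparison, and Syn3 was too low in cortex.

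At a resting nerve terminal, vesicles are filled with glutamate by a vesicular transporter, held in a reserve cluster by synapsins and brought to the active zone, where RIM and Munc13 proteins dock and prime them. When calcium enters, a synaptotagmin senses it and the SNARE proteins, held in check by complexin, fuse the vesicle with the plasma membrane. NSF with its SNAP adaptor then takes the spent SNARE complex apart, while dynamin, amphiphysin and synaptojanin recover the membrane. Excitatory neurons of cortex and hippocampus are rich in these transcripts and use Slc17a7 as their main glutamate transporter.

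RNA from cortex and hippocampus was read by prime-seq, a bulk protocol that primes on the poly(A) tail and counts fragments near the transcript's 3′ end. GA-Camk2a mice (labelled GACamk) carry a transgene for GFP-tagged poly-GA, a dipeptide repeat protein made from the C9orf72 expansion of ALS, behind a floxed stop cassette, and a Camk2a-Cre driver that opens it in excitatory neurons. They were kept on a C57BL/6J background. Controls are labelled ctrl, and which of the alleles they carried is not given by the labels. The labels put both groups at 30 to 40 weeks of age. The study describes the GA-Camk2a mice as 30 weeks old and places their humane endpoint at about 30 weeks. In all, 11 mice gave 21 libraries: 5 control and 6 GA-Camk2a cortices, and 4 control and 6 GA-Camk2a hippocampi, with both tissues from 10 of the mice. These numbers follow the labels. The study gives the control numbers of the tissues the other way round. The labels also give a batch of 1 or 2, without saying what it stands for, and each of the 4 groups held libraries of both batches.

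Total counts ran from 1048201 to 5888102 per library, with a median of 1975173. The transgene's GFP row held 0 to 4 counts per GA-Camk2a library and 0 to 2 per control library, too few to check the genotype. Some libraries stood apart. In cortex, 6 of the 11 (control mice 11, 31 and 38, GA-Camk2a mice 23, 30 and 34) each held 39 genes at more than 2 times the level of any of the other 5, with 1 release gene, Synpr, among them. In hippocampus, 3 of the 10 libraries (control mouse 11, GA-Camk2a mice 16 and 30) did so for 19 genes, with 0 release genes among them. All 6 hippocampus markers were detected in hippocampus and their summed level did not overlap that of cortex, at 699.7 to 897 against 215 to 276 CPM (counts per 1000000 counts of the library). The cortex markers did not separate the tissues. Their sum was 275 to 775 CPM in cortex and 213 to 305 CPM in 7 hippocampus libraries, but 1577, 4539 and 5412 CPM in the 3 that stood apart, of which Rorb alone made 1455, 4414 and 5303 CPM. Choroid plexus markers, led by Ttr, summed to 1590.4 to 8194 CPM in cortex and 1809.7 to 55530.1 CPM in hippocampus, and the genotypes overlapped in both tissues. The part of either list in the results was not tested beyond the settings that set the libraries that stood apart aside.

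For 34 of the 42 genes RefSeq gave promoter windows, 48 in all, each from 250 bases before to 50 after the start site on GRCm38.p6. These were searched on both strands for TGACGTCA, the full cyclic AMP response element, and for TTCAGCACC and GGACAGCGC, the parts of the element bound by the neuronal repressor REST. TGACGTCA stood in 2.08% of the windows against 1.79% of all 32851 windows of that length, TTCAGCACC in 4.17% against 0.371%, and GGACAGCGC in 2.08% against 0.405%. Only Syn1 and Unc13a held any, and their windows are printed because both genes return below. Matches are in capitals, and a match in these windows is a description of letters, not a bound site. In Syn1 (chrX:20920869-20921168, minus strand) TTCAGCACC begins 232 bases and TGACGTCA 159 bases before the start site.
Syn1: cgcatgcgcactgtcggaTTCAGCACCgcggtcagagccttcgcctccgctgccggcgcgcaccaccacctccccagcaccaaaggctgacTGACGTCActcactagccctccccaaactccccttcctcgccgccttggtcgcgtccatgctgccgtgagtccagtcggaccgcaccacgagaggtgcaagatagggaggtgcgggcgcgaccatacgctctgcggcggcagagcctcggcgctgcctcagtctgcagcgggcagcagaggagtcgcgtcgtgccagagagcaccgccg
In Unc13a (chr8:71671708-71672007, minus strand) both REST parts lie on the strand opposite to the gene, 5 and 22 bases after the start site.
Unc13a: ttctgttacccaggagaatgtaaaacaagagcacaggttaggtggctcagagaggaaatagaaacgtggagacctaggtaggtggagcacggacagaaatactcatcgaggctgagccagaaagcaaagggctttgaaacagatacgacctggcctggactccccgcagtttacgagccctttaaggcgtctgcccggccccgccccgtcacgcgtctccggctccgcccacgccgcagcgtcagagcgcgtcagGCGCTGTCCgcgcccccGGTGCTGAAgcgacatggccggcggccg

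The first question was how these transcripts differed between GA-Camk2a and control mice in each tissue. In cortex 15 of the 39 release genes tested were lower in GA-Camk2a mice and 1, Sypl, was higher, where 6.17% of all 13058 genes tested were lower and 6.35% higher (edgeR quasi-likelihood test with batch as a covariate, adjusted p under 0.05). In hippocampus 21 of 40 were lower and 1, again Sypl, was higher, where 5.97% of 14884 genes were lower and 4.97% higher. The median log2 fold change of the release genes, GA-Camk2a minus control, was -0.32 in cortex and -0.39 in hippocampus, beside -0.01 and 0.02 over all genes tested. With the sign alone, 36 of 39 were below zero in cortex and 33 of 40 in hippocampus, where 50.7% and 47.8% of all genes tested were. The 16 pan-neuronal genes described below were below zero in 16 of 16 cases in both tissues. Every GA-Camk2a library lay below every control library for 11 of the release genes in cortex and 17 in hippocampus, where 2.67% and 4.02% of all genes tested did so.

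**Figure D1:**
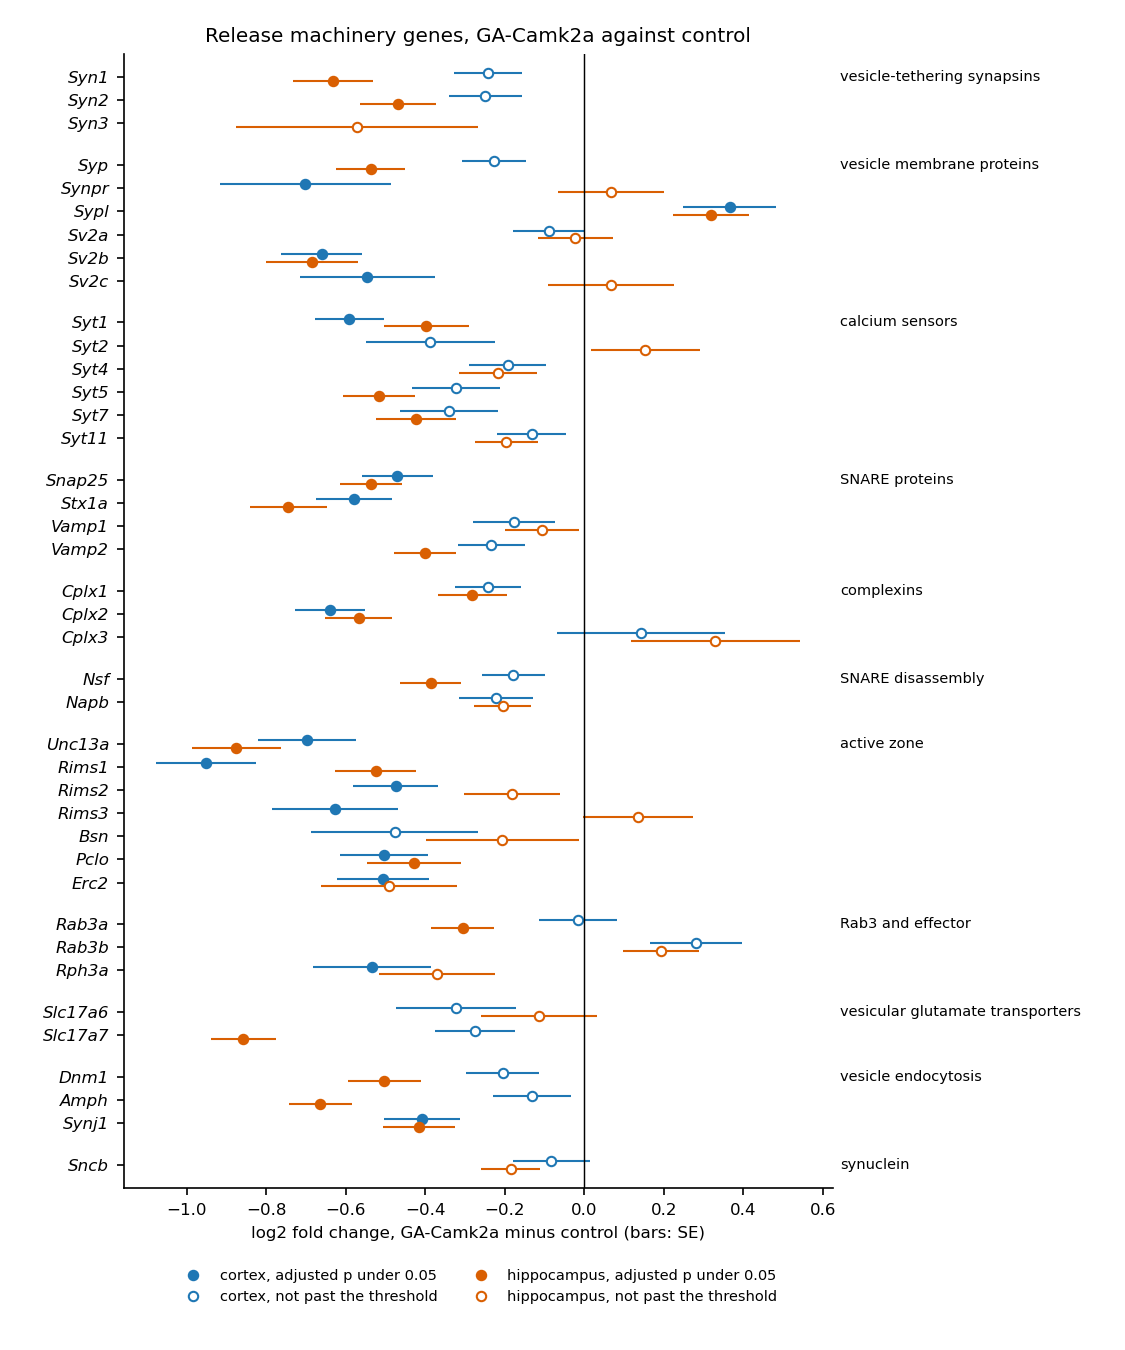
Log2 fold change, GA-Camk2a minus control, of each release gene tested in cortex (blue) and hippocampus (orange), grouped by role. Bars are standard errors and filled points have an adjusted p under 0.05. Most points lie left of zero, from -0.95 for Rims1 in cortex to 0.37 for Sypl in cortex.

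The 9 genes lower in both tissues were Sv2b, Syt1, Snap25, Stx1a, Cplx2, Unc13a, Rims1, Pclo and Synj1, which is 60.0% of the cortex list and 42.9% of the hippocampus list. Sypl was higher in both. Of all genes tested in both tissues 2.73% were higher in both and 2.52% were lower in both, the latter making up 40.4% of the genes lower in cortex and 36.7% of those lower in hippocampus. The cortices and hippocampi came from the same mice, so the lists are not independent. Taken alone, batch 1 gave 11 calls in cortex and 2 in hippocampus, and batch 2 gave 4 and 15, where 876, 115, 230 and 681 of all genes were called in that order. Without the libraries that stood apart, 3 release genes (Snap25, Stx1a and Cplx2) were called in cortex from 5 libraries and 15 in hippocampus from 7, where 186 and 775 of all genes were. With a term for those libraries in place of batch, 14 and 20 release genes were called beside 1426 and 1541 of all genes, where the full comparisons called 1635 and 1628.

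Other neuronal and glial transcripts moved with genotype too, and in bulk tissue fewer cells of a type and less RNA per cell cannot be told apart. Of 16 pan-neuronal genes such as Rbfox3 and Map2, 5 were lower in cortex and 10 in hippocampus, with medians of -0.24 and -0.33. Of 8 excitatory neuron markers, 5 and 4 were lower, with medians of -0.63 and -0.67, among them Camk2a, whose promoter drives the Cre, at -0.74 and -1.15. The excitatory markers' summed level ran from 1563 to 1992 CPM in control cortex and 1004 to 1370 in GA-Camk2a cortex, and from 1751 to 2260 and 906 to 1249 CPM in hippocampus. Inhibitory neuron markers rose in 2 of 8 and 3 of 8 cases, with medians of 0.24 and 0.31. Their highest values were 1.31 and 1.16, and 0 of 8 in cortex and 1 of 8 in hippocampus lay below zero. Gad1 did not pass in either tissue, at 0.11 (adjusted p = 0.460) and 0.34 (adjusted p = 0.0509). The summed level of the list was 1206 to 1289.5 CPM in control and 1400 to 1795 CPM in GA-Camk2a cortex, without overlap. In hippocampus it was 1033 to 1126 CPM and 999.6 to 1479 CPM, which overlap. Of 8 microglia markers 5 rose in each tissue, and their summed level was 204 to 221 CPM in control cortex and 416 to 634 CPM in GA-Camk2a cortex. Of 6 astrocyte markers 3 rose in cortex and 4 in hippocampus, with medians of 0.45 and 0.49, and none fell. Their summed level was 1485 to 2228 CPM in control and 2192 to 3551 CPM in GA-Camk2a cortex, which overlap, and 1967 to 2308 against 3325 to 4729.7 CPM in hippocampus, which do not. Striatum markers fell in 8 of 8 cases in cortex, from 932 to 1446 CPM down to 254 to 581 CPM, and the median of the 5 tested in hippocampus was -0.02. Hippocampus markers fell in 3 of 6 cases in hippocampus (median -0.32) and cortex markers in 2 of 6 in cortex (median -0.41). Thalamus markers fell in 2 of the 6 tested in cortex (median 0.01), and 1 of 6 oligodendrocyte markers rose there. No other marker of these 4 lists passed in the genotype comparison of either tissue. No marker of the neuronal, microglial or astrocyte lists was at 0 in any library. What part any of these lists has in the fall of the release genes was not tested.

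The summed levels were also set against the pan-neuronal sum. The 42 release genes together made 9855 to 12516 CPM in control cortex and 8041 to 9576 in GA-Camk2a cortex, and 9331 to 10436 CPM in control and 6859 to 8654 in GA-Camk2a hippocampus, with no overlap in either tissue. Their ratio to the pan-neuronal sum was 1.99 to 2.37 in control and 1.92 to 2.25 in GA-Camk2a cortex, and 2.18 to 2.36 and 2.10 to 2.23 in hippocampus, where the groups overlapped.

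Among the SNARE proteins, the helices that pull membranes together, Snap25 and Stx1a fell in both tissues. Snap25, a plasma membrane SNARE, was at 2276, 2299.5, 2396, 2523 and 2841 CPM in the 5 control cortices and 1675 to 1929 CPM (median 1744) in the 6 GA-Camk2a cortices. In hippocampus it was at 1911, 1964, 2142 and 2165 CPM in the 4 controls and 1258 to 1611 CPM (median 1453) in the 6 GA-Camk2a mice. The groups did not overlap in either tissue, and the log2 fold changes were -0.47 (SE 0.09, adjusted p = 0.00105) and -0.54 (SE 0.08, adjusted p = 0.000416), a fall of 27.9% and 31.1%. Stx1a, the syntaxin that pairs with it, was at 145, 149.9, 159.9, 160.1 and 183 CPM in control and 89.9 to 124 CPM (median 108) in GA-Camk2a cortex. Its hippocampal level was 58.1, 58.8, 61.0 and 64.0 CPM in controls and 33.4 to 43.0 CPM (median 34.9) in GA-Camk2a mice. Again no library of one genotype reached the other, with log2 fold changes of -0.58 (SE 0.10, adjusted p = 0.000243) and -0.74 (SE 0.10, adjusted p = 0.000165). Within the batches the cortical values were -0.45 in batch 1 and -0.51 in batch 2 for Snap25 and -0.51 in batch 1 and -0.72 in batch 2 for Stx1a.

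The vesicle SNARE Vamp2 fell in hippocampus, from 438, 449.7, 452 and 466 CPM in controls to 323 to 407 CPM (median 341) in GA-Camk2a mice without overlap (log2 fold change -0.40, SE 0.08, adjusted p = 0.00380). Its cortical change was -0.23 (SE 0.08, adjusted p = 0.0750), with overlapping groups. Vamp1, its relative of fast-spiking and motor pathways, gave -0.18 (SE 0.10, adjusted p = 0.299) and -0.11 (SE 0.09, adjusted p = 0.524).

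Complexins bind the assembled SNARE bundle. Cplx2, the form prominent in excitatory neurons, was at 606, 736, 763, 780.4 and 847 CPM in control and 395 to 573 CPM (median 488) in GA-Camk2a cortex. In hippocampus it was at 639.6, 717, 781 and 815 CPM in control and 446 to 570.1 CPM (median 507) in GA-Camk2a mice. The genotypes were separate in both tissues and the log2 fold changes were -0.64 (SE 0.09, adjusted p = 3.10e-05) and -0.57 (SE 0.08, adjusted p = 0.000512). Cplx1, more typical of inhibitory neurons, gave -0.24 (SE 0.08, adjusted p = 0.0584) in cortex, and in hippocampus it passed the test by a small margin with overlapping groups, at -0.28 (SE 0.09, adjusted p = 0.0479). Dropping any 1 library removed that hippocampal call, except when GA-Camk2a mouse 34 was the one dropped, and so did upper quartile scaling, scaling by library size alone, thinned counts and a term for the libraries that stood apart. Cplx3 was low, at 13.6 to 23.3 CPM in control cortex and 4.56 to 6.17 in control hippocampus, and its genotype changes were 0.14 (SE 0.21, adjusted p = 0.725) and 0.33 (SE 0.21, adjusted p = 0.378).

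The largest fall in each tissue was in an active zone gene, Rims1 in cortex and Unc13a in hippocampus. Unc13a, the Munc13 protein that primes vesicles for fusion, was at 68.1, 75.4, 75.4, 77.9 and 123 CPM in control and 44.3 to 61.7 CPM (median 52.0) in GA-Camk2a cortex, where control mouse 31 stood above the other 4 controls. In hippocampus its level was 71.5, 83.1, 88.2 and 93.4 CPM in control and 36.2 to 55.9 CPM (median 48.5) in GA-Camk2a mice. The genotypes did not overlap, at -0.70 (SE 0.12, adjusted p = 0.000547) and -0.88 (SE 0.11, adjusted p = 0.000136), which is 38.4% and 45.5% less. Rims1, the RIM scaffold that ties primed vesicles to calcium channels, was at 48.1, 55.3, 55.4, 58.7 and 80.2 CPM in control and 22.7 to 36.7 CPM (median 32.1) in GA-Camk2a cortex. Hippocampal Rims1 was at 54.7, 58.8, 59.4 and 66.1 CPM in control and 39.0 to 52.3 CPM (median 40.9) in GA-Camk2a mice, where mouse 34 lay above the other 5. No overlap was seen in either tissue, and the log2 fold changes were -0.95 (SE 0.13, adjusted p = 1.89e-05) and -0.52 (SE 0.10, adjusted p = 0.00363), a cortical fall of 48.3%. Within the batches the cortical Rims1 change was -0.93 in batch 1 and -1.02 in batch 2. The difference between its effects in the tissues was 0.39 (SE 0.16, adjusted p = 0.388), which did not pass.

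Rims2, the second RIM gene, was at 93.7, 94.4, 103, 104 and 137 CPM in control cortex and 62.9 to 84.0 CPM (median 77.7) in GA-Camk2a cortex, with no overlap (log2 fold change -0.47, SE 0.11, adjusted p = 0.00446). Rims3, which encodes a short RIM form, was at 40.2, 41.02, 42.5, 59.7 and 59.9 CPM and 21.8 to 39.6 CPM (median 33.4) in the same groups, also apart (log2 fold change -0.63, SE 0.16, adjusted p = 0.0112). In hippocampus the changes were -0.18 (SE 0.12, adjusted p = 0.378) for Rims2 and 0.13 (SE 0.14, adjusted p = 0.601) for Rims3, and their groups overlapped. Without control mouse 31 the cortical Rims3 call was lost. The scaffold Pclo fell in both tissues with overlapping groups, at -0.50 (SE 0.11, adjusted p = 0.00387) and -0.43 (SE 0.12, adjusted p = 0.0282), and Erc2, another scaffold, fell in cortex at -0.51 (SE 0.12, adjusted p = 0.00512). Hippocampal Pclo lost its call when control mouse 11 or 31, or GA-Camk2a mouse 16, 35 or 41, was left out, or with scaling by library size alone. Thinned counts removed the cortical Erc2 call. For Erc2 in hippocampus the change was -0.49 (SE 0.17, adjusted p = 0.0818), with GA-Camk2a mouse 23 at 149.9 CPM above the other 5. Bsn, the third scaffold, was low at 4.49 to 15.3 CPM over all libraries and gave -0.48 (SE 0.21, adjusted p = 0.150) and -0.21 (SE 0.19, adjusted p = 0.608).

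**Figure D2:**
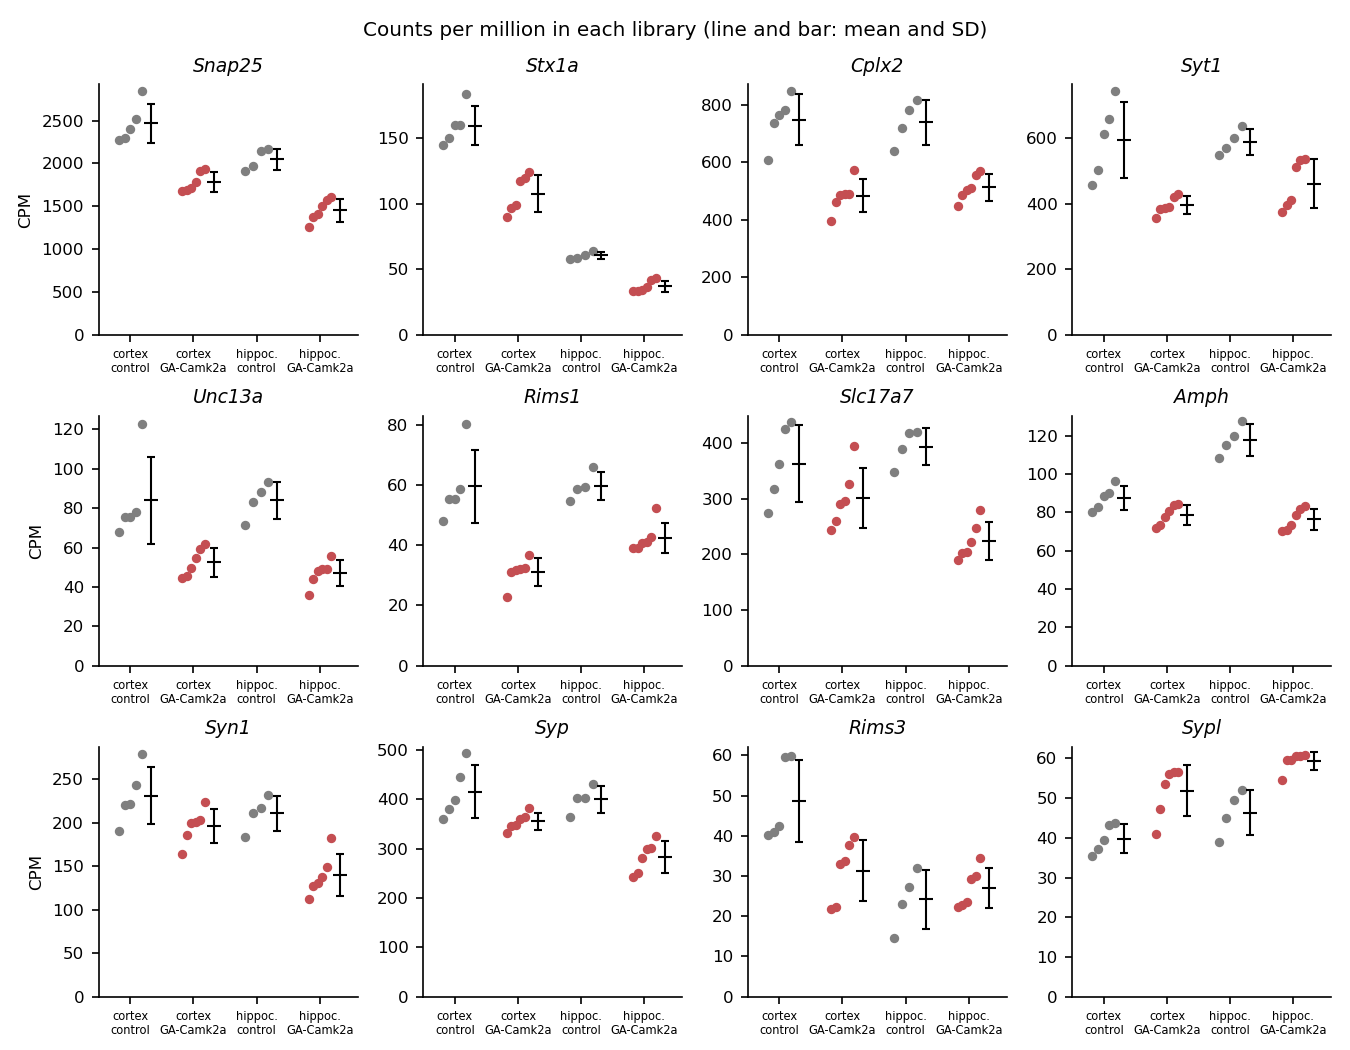
Levels in CPM of 12 release genes in every library of the 4 groups, ordered by level within a group (grey, control; red, GA-Camk2a), with the mean and SD at the right of each group. Snap25, Stx1a, Cplx2, Syt1, Unc13a and Rims1 show no overlap between the genotypes in either tissue. Slc17a7, Amph, Syn1 and Syp are separate in hippocampus and overlap in cortex, and Sypl lies higher in GA-Camk2a mice.

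Among the synaptotagmins, Syt1 passed in both tissues, and Syt5 and Syt7 passed in hippocampus only. Syt1, the sensor of fast release in forebrain neurons, was at 457, 503, 612, 657 and 743 CPM in control and 356 to 430.1 CPM (median 387) in GA-Camk2a cortex. In hippocampus it was at 548, 568, 598 and 636 CPM in control and 373 to 536 CPM (median 462) in GA-Camk2a mice. Groups did not overlap in either tissue, at -0.59 (SE 0.09, adjusted p = 6.02e-05) and -0.40 (SE 0.11, adjusted p = 0.0262). The hippocampal call was lost without control mouse 11, 20 or 31 or GA-Camk2a mouse 35, and with scaling by library size alone. Syt5 fell in hippocampus from 122, 123, 130.2 and 140.1 CPM to 80.3 to 102 CPM (median 96.0), without overlap (log2 fold change -0.52, SE 0.09, adjusted p = 0.00179), and gave -0.32 (SE 0.11, adjusted p = 0.0596) in cortex. Syt7, a slower and more sensitive sensor, fell in hippocampus with overlapping groups (log2 fold change -0.42, SE 0.10, adjusted p = 0.0130) and gave -0.34 (SE 0.12, adjusted p = 0.0740) in cortex. Syt2, Syt4 and Syt11 did not pass in either tissue: Syt2 was at -0.39 and 0.15, Syt4 at -0.19 and -0.22, and Syt11 at -0.13 and -0.20. Doc2a, a sensor linked to spontaneous release, was at 0 to 2.00 CPM and was not tested.

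Syn1 and Syn2, 2 of the 3 synapsin genes, and synaptophysin fell in hippocampus. Syn1, which holds vesicles in the reserve cluster, was at 184, 211, 216 and 231 CPM in control and 113 to 182 CPM (median 134) in GA-Camk2a hippocampus (log2 fold change -0.63, SE 0.10, adjusted p = 0.000831). Syn2 was at 323, 333, 358 and 360.5 CPM and 207 to 295 CPM (median 254) in the same groups (log2 fold change -0.47, SE 0.10, adjusted p = 0.00500). Neither overlapped between genotypes there. In cortex the changes were -0.24 (SE 0.09, adjusted p = 0.0693) for Syn1 and -0.25 (SE 0.09, adjusted p = 0.0817) for Syn2, whose control and GA-Camk2a cortices did not overlap although the test was not passed. Syn3 was low, at 0 to 6.68 CPM, and was tested in hippocampus only for genotype (log2 fold change -0.57, SE 0.30, adjusted p = 0.265). Syp, synaptophysin, the most widely used marker of synaptic vesicles, was at 364, 402, 402 and 431 CPM in control and 242 to 326 CPM (median 289) in GA-Camk2a hippocampus, again separate (log2 fold change -0.54, SE 0.09, adjusted p = 0.000979), and gave -0.23 (SE 0.08, adjusted p = 0.0680) in cortex.

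The SV2 glycoproteins of the vesicle split by gene. Sv2b fell in both tissues. Its cortical level was 97.7, 115, 128, 143 and 172 CPM in controls and 72.9 to 99.8 CPM (median 79.3) in GA-Camk2a mice. These groups overlapped, and the log2 fold change was -0.66 (SE 0.10, adjusted p = 0.000106). In hippocampus it was 126, 132, 141 and 156 CPM and 70.0 to 115 CPM (median 81.1), without overlap (log2 fold change -0.69, SE 0.12, adjusted p = 0.00134). Sv2a, the binding site of the antiepileptic levetiracetam, was at -0.09 and -0.02 (adjusted p = 0.577 and 0.921). Sv2c, low in cortex and known from the basal ganglia, fell in cortex at -0.55 (SE 0.17, adjusted p = 0.0368), a call that dropping 1 library removed in 8 of 11 cases (all but control mouse 20 and GA-Camk2a mice 35 and 41) and that was lost with the DESeq2 test, no filter, no batch term and thinned counts, and gave 0.07 (SE 0.16, adjusted p = 0.850) in hippocampus. The striatum markers fell in cortex beside it, as given above.

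Sypl, a relative of synaptophysin that is also expressed outside neurons, was the single release gene that rose. It was at 35.4, 37.2, 39.5, 43.2 and 43.6 CPM in control and 41.03 to 56.6 CPM (median 54.8) in GA-Camk2a cortex, with overlap, and at 38.9, 45.0, 49.5 and 52.0 CPM in control and 54.7 to 60.8 CPM (median 60.1) in GA-Camk2a hippocampus, without. The log2 fold changes of 0.37 (SE 0.12, adjusted p = 0.0419) and 0.32 (SE 0.10, adjusted p = 0.0435) were close to the threshold. Dropping 1 library removed the call in 9 of 11 cases in cortex and 9 of 10 in hippocampus, all but those of GA-Camk2a mice 30 and 35 in cortex and mouse 30 in hippocampus. It was also lost in both tissues with the DESeq2 test, without a filter on low counts, with counts thinned to the smallest library, in either batch alone, and with a term for the libraries that stood apart or without them, and in cortex with scaling by library size alone. Within the batches it was 0.32 in batch 1 and 0.44 in batch 2 in cortex and 0.17 in batch 1 and 0.47 in batch 2 in hippocampus.

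Synpr, synaptoporin, depended on which libraries were read. The 6 cortex libraries that stood apart held 371 to 693 CPM, the other cortex library of batch 1 (GA-Camk2a mouse 41) 129 CPM, the 4 of batch 2 61.1 to 98.1 CPM, and the 10 hippocampus libraries 73.9 to 132 CPM. Within the 6, the 3 controls were at 494 to 693 CPM and the 3 GA-Camk2a mice at 371 to 514 CPM, which overlap. Among the other 5, the 2 controls were at 92.7 to 98.1 CPM and the 3 GA-Camk2a mice at 61.1 to 129 CPM. With batch as a covariate the cortical change was -0.70 (SE 0.22, adjusted p = 0.0343). It was -0.74 in batch 1 and -0.61 in batch 2, and neither passed on its own, nor did Synpr pass with the DESeq2 test, with no batch term, in 1 model over all 4 groups, with a term for the libraries that stood apart or with cortex of control mouse 11, 20, 37 or 38 or GA-Camk2a mouse 16, 30 or 35 dropped. Hippocampal Synpr was 0.07 (SE 0.13, adjusted p = 0.816).

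**Figure D3:**
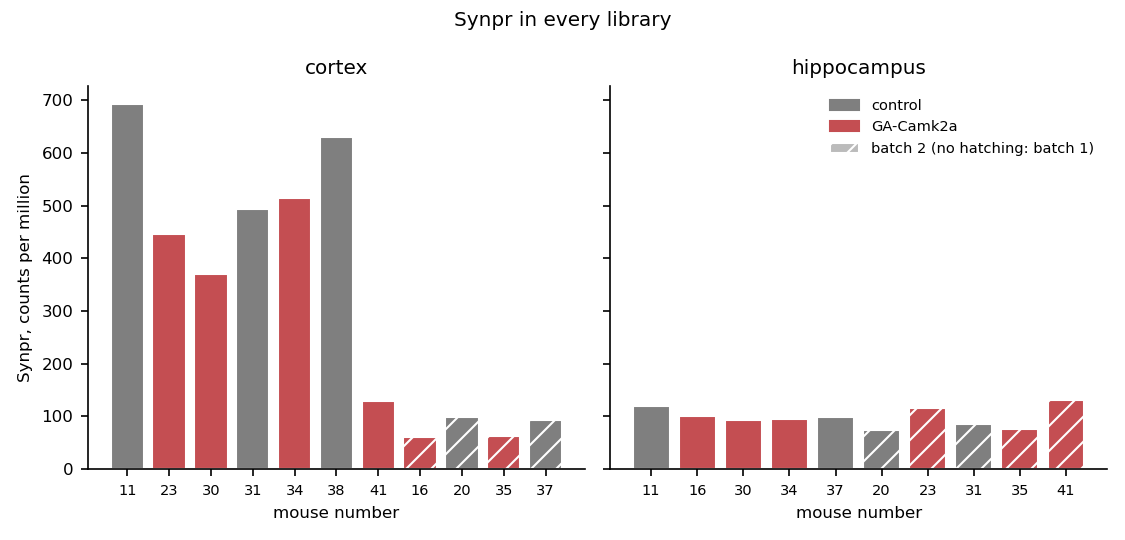
Synpr level in CPM in each cortex library (left) and hippocampus library (right), by mouse number (grey, control; red, GA-Camk2a; hatched, batch 2). The 6 high cortex bars, 371 to 693 CPM, belong to both genotypes, and the remaining libraries of either tissue lie at 61.1 to 132 CPM.

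The vesicular glutamate transporter Slc17a7 (VGLUT1), which loads glutamate at most cortical and hippocampal excitatory terminals, was at 349, 389, 418 and 419.7 CPM in control and 190.1 to 281 CPM (median 213) in GA-Camk2a hippocampus. No library overlapped, and the log2 fold change was -0.86 (SE 0.08, adjusted p = 1.57e-05), a fall of 44.8%. In cortex it was at 274, 317, 363, 426 and 437 CPM in control and 244 to 394 CPM (median 293) in GA-Camk2a mice. The cortical groups overlapped and the change was -0.27 (SE 0.10, adjusted p = 0.0828). Of the hippocampal calls, Slc17a7 alone held in all 13 other settings and with any 1 of the 10 libraries dropped, with -0.79 in batch 1 and -0.95 in batch 2. Slc17a6 (VGLUT2), which thalamic inputs use, was at 14.4 to 35.4 CPM over all libraries and gave -0.32 (SE 0.15, adjusted p = 0.178) and -0.11 (SE 0.15, adjusted p = 0.695). Slc17a8 (VGLUT3) was at 0 to 3.90 CPM and was not tested.

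The endocytic genes all fell in hippocampus. Amph, amphiphysin, which brings dynamin to the necks of budding vesicles, was at 108, 115, 119.7 and 128 CPM in control and 70.2 to 83.3 CPM (median 76.0) in GA-Camk2a hippocampus (log2 fold change -0.66, SE 0.08, adjusted p = 8.70e-05). Cortical Amph was at 80.0, 82.6, 88.3, 89.9 and 96.4 CPM in control and 71.9 to 84.6 CPM (median 79.1) in GA-Camk2a mice, with overlap (log2 fold change -0.13, SE 0.10, adjusted p = 0.428). Dnm1, the neuronal dynamin that cuts vesicles free, was at 301, 303, 336 and 411 CPM in control and 200.3 to 273 CPM (median 247) in GA-Camk2a hippocampus, without overlap (log2 fold change -0.50, SE 0.09, adjusted p = 0.00236), and gave -0.21 (SE 0.09, adjusted p = 0.152) in cortex. Synj1, the lipid phosphatase that strips the clathrin coat, was at 95.2, 95.4, 101, 104 and 134 CPM in control and 65.3 to 86.4 CPM (median 84.5) in GA-Camk2a cortex. Its hippocampal level was 132, 150.1, 154 and 169.9 CPM and 98.1 to 131 CPM (median 116). Synj1 was separate in both tissues, at -0.41 (SE 0.09, adjusted p = 0.00560) and -0.42 (SE 0.09, adjusted p = 0.00785).

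The remaining roles were SNARE disassembly, the Rab3 proteins with their effector, and the synuclein. Nsf, the ATPase that dismantles SNARE complexes, fell in hippocampus with overlapping groups (log2 fold change -0.39, SE 0.08, adjusted p = 0.00378) and gave -0.18 (SE 0.08, adjusted p = 0.153) in cortex. Its adaptor Napb was at -0.22 (SE 0.09, adjusted p = 0.127) and -0.21 (SE 0.07, adjusted p = 0.0808), and its hippocampal groups did not overlap although the test was not passed. Rab3a, the small GTPase carried by vesicles, fell in hippocampus with overlapping groups (log2 fold change -0.31, SE 0.08, adjusted p = 0.0213), a call lost without control mouse 31 or 37 or with scaling by library size alone, and was at -0.02 (SE 0.10, adjusted p = 0.944) in cortex. The related Rab3b lay above zero without passing, at 0.28 (SE 0.12, adjusted p = 0.123) and 0.19 (SE 0.10, adjusted p = 0.229). Rph3a, rabphilin, which binds Rab3 on the vesicle, was at 24.7, 26.3, 32.2, 34.9 and 36.3 CPM in control and 17.7 to 24.0 CPM (median 20.3) in GA-Camk2a cortex, without overlap (log2 fold change -0.53, SE 0.15, adjusted p = 0.0198). That call was lost with thinned counts or without control mouse 11, 31 or 37, and the hippocampal change was -0.37 (SE 0.15, adjusted p = 0.123). Sncb, beta-synuclein, was at -0.08 (SE 0.10, adjusted p = 0.638) and -0.18 (SE 0.07, adjusted p = 0.131).

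Whether the genotype effect differed between the tissues was tested directly as hippocampus effect minus cortex effect over all 21 libraries. Of 39 release genes 2 passed, Slc17a7 at -0.60 (SE 0.14, adjusted p = 0.0389) and Amph at -0.54 (SE 0.12, adjusted p = 0.0332), both with the larger fall in hippocampus, where 0.400% of all 14751 genes tested passed. The median of the release genes was -0.04 beside -0.02 over all genes. Marker lists differed between the tissues too. The median of the 8 excitatory neuron markers was -0.40, with 1 past the threshold and lower, and that of the 6 hippocampus markers was -0.25, with 6 of 6 below zero and 1 past the threshold. Striatum markers were higher in 5 of 8 cases, with a median of 1.44. The part of these lists in the Slc17a7 and Amph values was not tested. In 6 of 6 GA-Camk2a mice Slc17a7 was lower in the hippocampus than in the cortex of the same mouse, by -0.95 to -0.14 (median -0.36) on the log2 CPM scale, and in 3 of 4 control mice it was higher, with a range of -0.17 to 0.61 (median 0.17). Amph was higher in hippocampus in 4 of 4 control mice, by 0.26 to 0.52 (median 0.42), and in 1 of 6 GA-Camk2a mice, with a range of -0.25 to 0.08 (median -0.02). With the mouse as a replicate block 1 release gene passed, Slc17a7, beside 70 of all genes, and Amph did not. Without the block 59 of all genes passed. Each call held in 6 of the 13 other settings. With 1 of the 21 libraries dropped, Slc17a7 held in 3 cases, those without cortex of GA-Camk2a mouse 30 or 41 or hippocampus of GA-Camk2a mouse 34, and Amph in 6, those without cortex of control mouse 11 or 20, cortex of GA-Camk2a mouse 30, 34 or 41, or hippocampus of GA-Camk2a mouse 30. Neither passed within a single batch, where Slc17a7 was -0.41 in batch 1 and -0.79 in batch 2 and Amph -0.49 in batch 1 and -0.56 in batch 2. The largest interaction values that did not pass were 0.73 (SE 0.23, adjusted p = 0.209) for Rims3 and 0.73 (SE 0.55, adjusted p = 0.712) for Synpr.

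**Figure D4:**
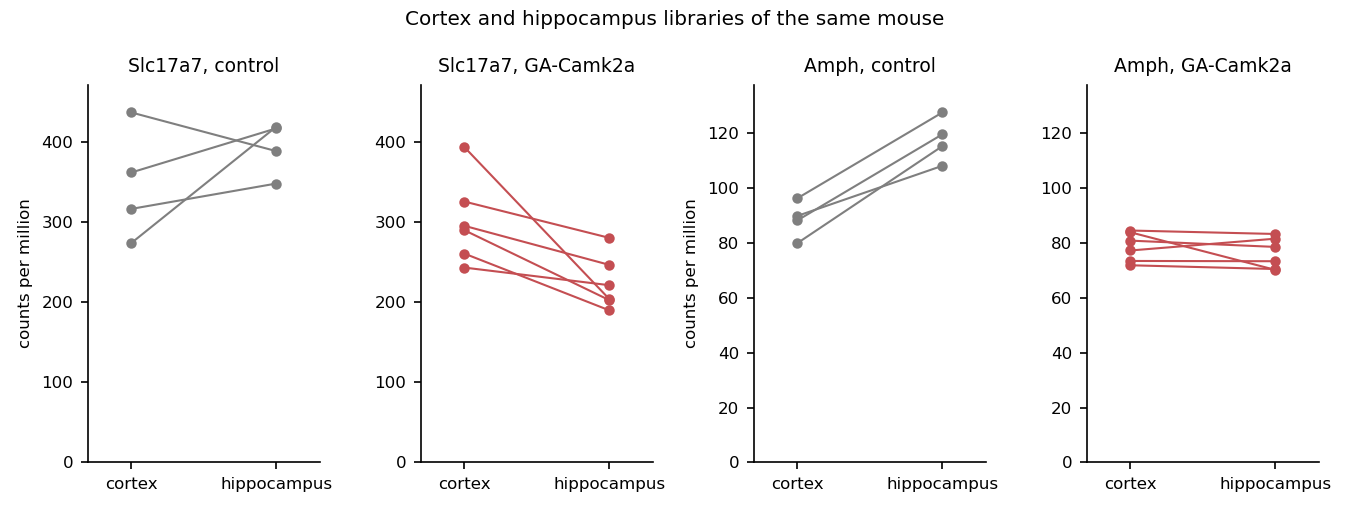
Slc17a7 and Amph levels in CPM in cortex and hippocampus, with a line joining the tissues of 1 mouse (grey, 4 control mice; red, 6 GA-Camk2a mice). Slc17a7 falls from cortex to hippocampus in 6 of 6 GA-Camk2a mice and 1 of 4 controls, and Amph rises in 4 of 4 controls and 1 of 6 GA-Camk2a mice.

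Levels of release genes were also compared between the tissues. In control mice 15 of 40 release genes were lower in hippocampus than in cortex and 5 were higher, where 7.60% of 14435 genes tested were lower and 8.69% higher. In GA-Camk2a mice 14 of 39 were lower and 4 higher, where the shares over 13098 genes were 15.9% and 17.3%. The medians, hippocampus minus cortex, were -0.19 and -0.22, beside 0.00 and -0.01 over all genes. Pan-neuronal genes were lower too, with medians of -0.23 in control and -0.35 in GA-Camk2a mice, where 5 and 8 of 16 were lower and 0 and 2 higher. Striatum markers were lower in 8 of 8 cases in controls (median -2.82) and in 4 of the 6 tested in GA-Camk2a mice (median -1.04), where 1 was higher. Choroid plexus markers were higher in hippocampus in 5 of 5 cases in controls (median 2.81) and in 3 of the 3 tested in GA-Camk2a mice (median 3.26). The part of these lists in the release gene values was not tested. Without the libraries that stood apart 12 and 15 release genes passed beside 1149 and 2334 of all genes, and with a term for them in place of batch 10 and 15 beside 893 and 2579. With the mouse as a replicate block 19 and 20 passed beside 2002 and 4312 of all genes, where the full comparisons called 20 and 18 beside 2351 and 4350.

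Of the 4 SNARE genes, 3 were lower in hippocampus than in cortex in both genotypes, and Stx1a had the largest difference of them. It was lower in hippocampus at -1.45 (SE 0.10, adjusted p = 4.12e-08) in control and -1.59 (SE 0.09, adjusted p = 4.27e-09) in GA-Camk2a mice, and the per-library levels given above do not overlap between the tissues in either genotype. The same held for Cplx3, a complexin known from retinal ribbon synapses and deep cortical layers, at -1.80 (SE 0.20, adjusted p = 8.41e-06) and -1.66 (SE 0.24, adjusted p = 6.97e-05). The other genes lower in hippocampus in both genotypes were Syt4 (-0.54 and -0.53), Syt5 (-0.52 and -0.69), Snap25 (-0.32 and -0.38), Vamp2 (-0.35 and -0.50), Cplx1 (-0.37 and -0.41), Rab3b (-0.67 and -0.74) and Sncb (-0.58 and -0.69). These 9 make 60.0% of the control list and 64.3% of the GA-Camk2a list, where the genes lower in both genotypes were 5.45% of all genes tested in both, 64.5% of the control list and 33.99% of the GA-Camk2a list. Dropping 1 library removed the control call of Snap25 in 8 of 9 cases, all but that of cortex of control mouse 31, and so did the replicate block that pairs the tissues by mouse, scaling by library size alone and thinned counts. The control call of Vamp2 was lost with no filter or without hippocampus of control mouse 11, and that of Cplx1 without hippocampus of control mouse 11 or 20. With a term for the libraries that stood apart, the control calls of Syt5, Snap25, Vamp2, Cplx1 and Sncb were lost, and those of Stx1a, Cplx3, Syt4 and Rab3b were kept.

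Erc2 and Synj1 were higher in hippocampus in both genotypes, Erc2 at 0.74 (SE 0.13, adjusted p = 0.000712) and 0.72 (SE 0.15, adjusted p = 0.00186) and Synj1 at 0.47 (SE 0.11, adjusted p = 0.00529) and 0.48 (SE 0.08, adjusted p = 0.000238), where 6.32% of all genes tested in both were higher in both. Syn2 (0.39), Nsf (0.37) and Amph (0.39) were higher in control hippocampus, where GA-Camk2a mice gave 0.20, 0.16 and -0.12. Pclo (0.45) and Rims1 (0.38) passed as higher in GA-Camk2a hippocampus, where controls gave 0.39 and -0.06. Lower in control hippocampus only by the test were Synpr, Sv2c, Syt2, Rims2, Rims3 and Rph3a, from -1.60 for Synpr to -0.53 for Rims2, and lower in GA-Camk2a hippocampus only by the test were Syn1, Syp, Rab3a, Slc17a7 and Dnm1, from -0.54 for Syn1 to -0.36 for Dnm1. With a term for the libraries that stood apart, the control calls of Syn2, Amph, Synpr, Sv2c, Rims2 and Rph3a and the GA-Camk2a calls of Rims1, Slc17a7 and Dnm1 were lost. The Rims1 call was also lost with no filter, with thinned counts and without hippocampus of GA-Camk2a mouse 34 or cortex of GA-Camk2a mouse 35. Without hippocampus of control mouse 11 the control calls of Amph, Sv2c and Rph3a were lost. The Sv2c call was lost too with thinned counts, the replicate block or without hippocampus of control mouse 37, and the Rph3a call with thinned counts or without hippocampus of control mouse 20 or cortex of control mouse 37. Of all these, the difference between genotypes passed for Slc17a7 and Amph alone, as given above. The Synpr value in control mice was -2.52 in batch 1 and -0.33 in batch 2, and in GA-Camk2a mice -1.96 in batch 1 and 0.66 in batch 2. Its cortical levels in the libraries that stood apart are given above.

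**Figure D5:**
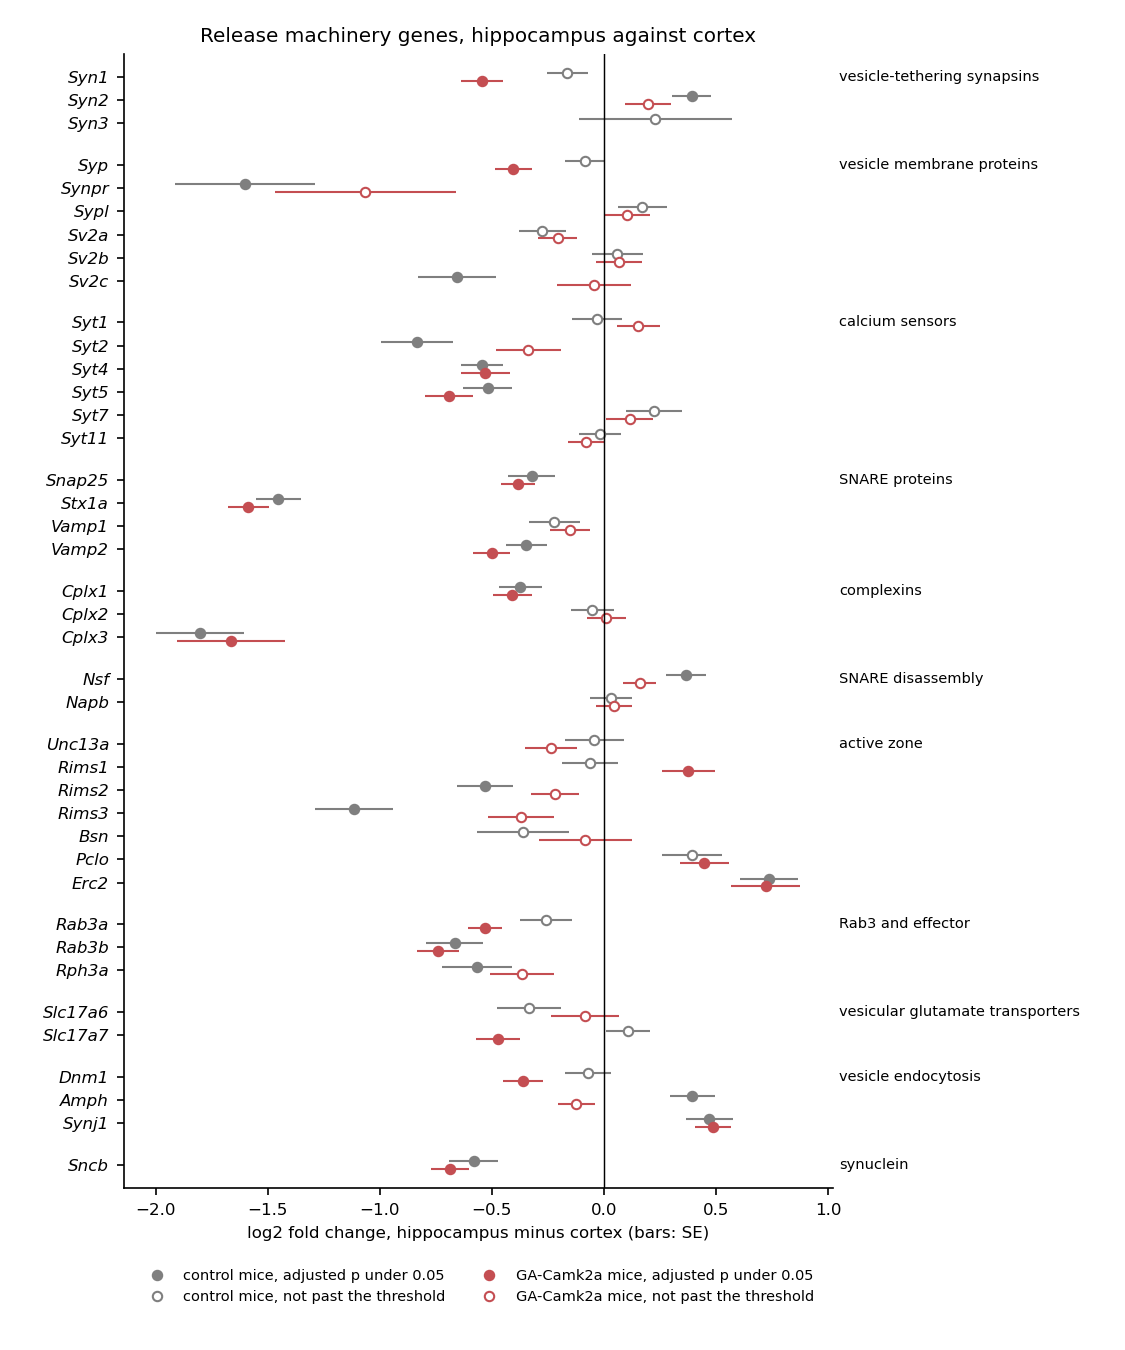
Log2 fold change, hippocampus minus cortex, of each release gene tested in control mice (grey) and GA-Camk2a mice (red), grouped by role, with standard errors; filled points have an adjusted p under 0.05. Stx1a and Cplx3 lie far to the left in both genotypes, at -1.45 to -1.80, and Erc2 lies at 0.74 and 0.72.

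A wider list of 49 other presynaptic genes was read for comparison, 48 of them tested in each tissue. In cortex 9 passed and all were lower, with a median of -0.25 over the list, where 6.17% of all genes tested were lower. In hippocampus 20 passed and all were lower, with a median of -0.21, where 5.97% of all genes were lower. The medians over all genes tested were -0.01 and 0.02. The list's summed level overlapped between genotypes in cortex, at 5431 to 6429 CPM in control and 4836 to 5554 CPM in GA-Camk2a mice. In hippocampus it did not, at 5560 to 6152 CPM and 4698 to 5444 CPM. The largest cortical changes past the threshold were Unc13c, a further Munc13 gene, at -0.64 (SE 0.16, adjusted p = 0.0124), Nrxn3, a neurexin adhesion protein, at -0.53 (SE 0.10, adjusted p = 0.000704), and Snap91, the clathrin assembly protein AP180, at -0.41 (SE 0.10, adjusted p = 0.0103). In hippocampus they were Doc2b, a calcium sensor of release, at -0.97 (SE 0.18, adjusted p = 0.00231), Lin7b, a scaffold, at -0.72 (SE 0.13, adjusted p = 0.00281), and Ppfia3, a liprin of the active zone, at -0.59 (SE 0.12, adjusted p = 0.00660).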

How the data were processed

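Per the study's methods, the authors aligned the prime-seq reads to GRCm39 (mm39), and the study's software list names zUMIs for these mice. The table also holds a GFP row. Cutadapt 1.12, FastQC 0.11.8, STAR and DESeq2 1.44 are named in the submitters' processing notes. The authors deposited raw counts, whole numbers without any scaling. Whether these are molecular identifiers or reads, and which annotation, intron and strand settings were used, is not given in the sources used here, so overlapping or near-identical genes may share counts. If they are reads, counting error understates the technical error. The GFP row was kept out of library sizes and tests. Symbols came from a GRCm38 annotation and matched 43308 of 64361 genes, which held 96.1% of counts. No column went unused.

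Libraries were grouped by the tissue, genotype and batch labels. CPM is a gene's count per 1000000 counts of its library. Genes were tested with edgeR 4.0.16 (R 4.3.3; TMM, filterByExpr with a minimum count of 10, quasi-likelihood F-test, batch as covariate), with Benjamini-Hochberg adjustment over all genes tested and a threshold of 0.05. The study names DESeq2 for these mice and states no covariate. Here DESeq2 was run as an alternative with the batch term kept, so a DESeq2 model without it was not run. Other alternatives were other scalings, limma-voom 3.58.1, no filter, no batch term in edgeR, thinned counts, single batches and leaving out each library. The 42 genes, the marker lists and the tests were chosen with earlier results of these data known. A pair of alternatives for libraries that stand apart were added after the data were examined. All 42 genes are named; library values are given for those that passed in a tissue without overlap or differed between tissues, and of the other presynaptic genes the 3 largest changes per tissue. The fitting was also run on simulated counts that held no batch effect, no mouse effect and no libraries that stand apart. That run cannot show how the calls depend on these.

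Replicate numbers are mouse numbers, so the tissues of 10 mice are paired by animal. Deviations of the tissues of 1 mouse from their group means correlated at -0.23 to 0.29 (median 0.04; 5 of 10 over 0.1). By this measure the cortex closest to the hippocampus of a mouse was its own in 1 of 10 mice. The pairing therefore rests on the labels. Of 46 pairs of libraries within groups, 0 agreed within sampling noise, and each mouse was counted as a replicate.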

Additional observations from a re-analysis of the deposited data

Results flagged for a closer look

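Each of the 40 release genes tested (all but Doc2a and Slc17a8) was looked at in each of the 4 groups, 160 sets in all, for a library whose gap to the nearest other exceeds the 95% critical value of Dixon's test. This was met in 10 sets, where chance gives about 1 in 20. In cortex, control mouse 31 was the highest of 5 for Unc13a (122.7 CPM), Rims2 (137 CPM) and Synj1 (134 CPM), and GA-Camk2a mouse 35 was the lowest of 6 for Vamp1 (55.4 CPM). In hippocampus, GA-Camk2a mouse 34 was the highest of 6 for Syt4 (193 CPM), Rims1 (52.3 CPM) and Rab3a (662 CPM). GA-Camk2a mouse 23 was the highest for Erc2 (149.9 CPM) and GA-Camk2a mouse 30 the lowest for Sypl (54.7 CPM). Control mouse 37 was the lowest of 4 for Syt4 (154 CPM). The cortical calls of Unc13a, Rims2 and Synj1 held without control mouse 31, and the hippocampal Rims1 and Rab3a calls held without GA-Camk2a mouse 34.

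By the test of the difference itself, the genotype effect was lower in hippocampus than in cortex for Slc17a7 (-0.60) and Amph (-0.54). Both genes had negative fold changes in both tissues.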

How the results depend on the processing

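Over 5099 fold changes of single release genes under other settings, 4762 kept their side of the threshold and 205 of these, none past it before or after, changed sign. A further 279 lost a call, 57 gained one and 1 reversed: Synpr between the tissues of GA-Camk2a mice was -1.06 and not past the threshold in the full comparison, and 0.66 and past it in batch 2 alone. The causes were not tested, beyond fewer libraries or fewer counts where a setting removes them.

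For release genes, the 16 called in cortex became 4 in batch 2 alone and 3 without the libraries that stood apart, and 12 to 17 when 1 library was left out. The 22 in hippocampus became 2 in batch 1 alone, and 17 to 22 with a library left out. The 2 that differed between tissues became 1 with DESeq2 size factors, no batch covariate or the replicate block, and 0 with library size only, thinned counts, batch 1 alone, batch 2 alone or without the libraries that stood apart, where 8, 7, 6, 6 and 4 had an unadjusted p under 0.05 in edgeR, and DESeq2 and limma-voom each called 2. With a library left out they were 0 to 2. Between tissues in controls, the 20 called became 11 in batch 1 alone, 12 in batch 2 alone, 10 with a term for the libraries that stood apart, 12 without them and 14 to 23 with a library left out. In GA-Camk2a mice the 18 became 11 in batch 2 alone and 18 to 20 with a library left out. The replicate block gave 19 and 20 between tissues. Of the tissue calls in controls it removed those of Sv2c and Snap25. Snap25, Stx1a and Cplx2 in cortex and Slc17a7 in hippocampus were called under every setting and every left-out library.

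For all genes, the 1635 called in cortex became 1035 with thinned counts, 876 in batch 1 alone, 230 in batch 2 alone, 186 without the libraries that stood apart and 1038 to 1526 with a library left out. The 1628 in hippocampus became 930, 115, 681, 775 and 1038 to 1831 in the same order, the lowest without control mouse 31. The 59 that differed between tissues became 113 with the DESeq2 test, 159 with no filter, 36 with no batch covariate, 22 with thinned counts, 0 in either batch alone (1133 and 803 at an unadjusted p under 0.05), 0 without the libraries that stood apart (1033) and 22 to 66 with a library left out. Between tissues in controls, 2351 became 1409 with thinned counts, 1241 in batch 1 alone, 1314 in batch 2 alone, 893 with a term for the libraries that stood apart, 1149 without them and 1580 to 3168 with a library left out. In GA-Camk2a mice, 4350 became 2851, 2585, 1353, 2579, 2334 and 3668 to 4262 in that order.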
